A study of Mus musculus with 4 samples.

Results

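The genes described here are 37 transcription factor genes that direct the lineages of the early mouse embryo. They were taken by name from a list written for this work and sorted into 6 endoderm, 14 mesoderm, 10 ectoderm and 7 trophoblast regulators, and all 37 were found among the 21774 protein-coding genes on the assembled chromosomes. Each was read together with 5 kb of sequence on either side. All libraries came from embryonic stem cells (strain 129S4/SvJae) made to overexpress a GFP fusion of the oocyte linker histone H1foo, with no other genotype or treatment beside them. Chromatin immunoprecipitation and sequencing (ChIP-seq) used a rabbit polyclonal antibody against H1foo or the mouse monoclonal AE4 against somatic H1, in 2 libraries each. The deposited data are 1 peak list per antibody, with 97825 H1foo and 47493 AE4 peaks in mm10 coordinates. No value per library is in the lists, so there is no replicate error and no test below, and read depth is unknown. All values describe these 2 lists.

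Linker histones bind the nucleosome where DNA enters and leaves it, and H1foo takes the place of the somatic variants in the oocyte. Lineage regulators are switched on as cells leave pluripotency, and in embryonic stem cells many of them are kept silent by Polycomb repressive complexes at promoters rich in CG dinucleotides. Some act in several lineages, so the lineage each was placed in is a choice, and 10 were also given a second lineage. Pax7 and Sox9, placed in ectoderm, and Cdx1, placed in endoderm, had mesoderm as their second lineage. Expression was not analysed here, and whether a given regulator was active in these cells is therefore unknown.

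Linker histones are known to be sparse at active promoters, so the start sites are described before the wider windows. RefSeq start windows (GRCm38.p6, from 250 bp before a start to 50 bp after it) were matched for 23 of the 37 genes. Genes without a listed start include Tead4, Sox10, Tfap2c and Cdx1, which carry many peaks of both antibodies. Mixl1, Gata4 and Tbx5, which also have an AE4 peak, lack one too. The start counts therefore describe the 23 genes and not the whole list. An H1foo peak lay over such a window at 2 of these 23 genes, Tbx6 and Pax6, and an AE4 peak at 1, Tbx6. Among 17492 genes with a listed start the shares were 14.4% for H1foo and 2.66% for AE4. The sequences of these windows are printed 5′ to 3′ with the bases under the H1foo peak in capitals. The Isl1 window stands beside them as a start with no peak in either list, and was picked after its values were seen.
Tbx6 (chr7:126781233-126781532, + strand): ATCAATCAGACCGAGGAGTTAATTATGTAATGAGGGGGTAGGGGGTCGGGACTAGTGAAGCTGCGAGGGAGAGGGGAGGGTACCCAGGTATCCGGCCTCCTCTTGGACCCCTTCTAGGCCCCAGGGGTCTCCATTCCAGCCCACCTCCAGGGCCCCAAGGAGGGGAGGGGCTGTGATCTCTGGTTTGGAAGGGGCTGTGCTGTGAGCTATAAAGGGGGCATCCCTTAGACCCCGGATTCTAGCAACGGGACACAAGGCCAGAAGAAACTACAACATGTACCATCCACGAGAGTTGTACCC
Pax6, internal start (chr2:105682213-105682512, + strand): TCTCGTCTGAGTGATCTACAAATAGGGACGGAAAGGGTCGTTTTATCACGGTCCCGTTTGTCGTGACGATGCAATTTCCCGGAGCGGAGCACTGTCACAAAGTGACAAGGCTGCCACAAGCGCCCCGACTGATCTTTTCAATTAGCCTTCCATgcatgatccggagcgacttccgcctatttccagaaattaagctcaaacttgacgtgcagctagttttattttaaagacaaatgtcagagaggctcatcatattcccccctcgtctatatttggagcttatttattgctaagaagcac
Isl1 (chr13:116309639-116309938, - strand): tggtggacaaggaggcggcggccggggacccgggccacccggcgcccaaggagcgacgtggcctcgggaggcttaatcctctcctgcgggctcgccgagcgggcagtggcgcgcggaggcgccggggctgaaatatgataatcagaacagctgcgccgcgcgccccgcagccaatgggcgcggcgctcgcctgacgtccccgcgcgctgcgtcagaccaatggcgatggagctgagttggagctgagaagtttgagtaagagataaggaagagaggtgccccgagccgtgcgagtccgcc
All 300 bases at Tbx6 lay under the H1foo peak and under an AE4 peak. At Pax6 the H1foo peak covered bases 1 to 153, counted from the 5′ end of the window, and ended before the start site. The Tbx6 window held 7 CG dinucleotides, Pax6 held 16 and Isl1 held 37, where the median of genes with a listed start was 15. A TATAAA motif, searched on both strands, began at base 208 of the Tbx6 window and was in neither of the others. It was in 5 of 31 windows of the regulators and in 12.6% of all 21263 windows.

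Within 2 kb of a listed start, any part of an H1foo peak was found at 6 of the 23 genes, Cdx2, Hand2, Mesp1, Pax6, Pdx1 and Tbx6, against 32.9% of all genes with a listed start. For AE4 it was Tbx6 alone, against 12% of all such genes. Counted by the peak's centre, H1foo lay within 2 kb of a start at 5 genes (30.9% of all such genes) and AE4 at 1 (10.3%). The regulators had a median of 17 CG in the window. The highest of 4 classes of all genes, with 26 to 67 CG, held 5 regulators: Gata2, Isl1, Neurod1, Runx1 and Sox1. None of them had an H1foo peak within 2 kb of a start, where 35.5% of all genes in that class had one. With 15 to 25 CG it was 3 of 9 regulators (42.6% of all genes), and with 4 to 14 CG 3 of 8 (39.2%). With 0 to 3 CG it was 0 of 1 (12.7%). Of the regulators in the highest CG class, Neurod1 had 1 H1foo peak in the gene or within 5 kb. Runx1 and Sox1 had 2 each there, while Gata2 and Isl1 had none. The numbers per class are small, and a relation to CG was not tested.

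H1foo peaks lay in the gene or within 5 kb at 25 of the 37 regulators, or 67.6%. Over all protein-coding genes the share was 62.6%. Many regulators are short genes in gene-poor surroundings: their median length was 7.95 kb against 17.2 kb for all genes, and their median number of genes in 1 Mb was 12 against 16. Each regulator was therefore also set beside all genes of its own class of gene length (3 classes) and gene density (10 classes), and the mean share in these classes was 50.9%. AE4 peaks lay at 12 of 37 or 32.4%, below the 51% of all genes and the 38.4% of the classes. Both antibodies had a peak at 10 regulators (27.0% against 46.8% of all genes and 33.6% in the classes).

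The widest gap was in genes with H1foo but no AE4 peak. They were 15 of the 37 regulators or 40.5%, beside 15.8% of all genes and 17.2% in the classes. AE4 without H1foo was found at 2 regulators, Gata1 and Tbx5, or 5.41% (4.24% of all genes), and neither at 10 (27.0% against 33.2% of all genes and 44.4% in the classes). The H1foo list holds 2.06 times as many peaks as the AE4 list, so a gene can show H1foo alone through list length. With H1foo limited to as many peaks as AE4, highest scores first, 18 regulators had an H1foo peak (47% of all genes) and 9 regulators or 24.3% had H1foo without AE4, beside 7.67% of all genes and 7.98% in the classes. With scores of at least 100, H1foo lay at 11 regulators (35.6% of all genes) and AE4 at 6 (16.2%), and H1foo without AE4 at 5 or 13.5%, below the 21% of all genes and the 15.6% of the classes. With scores above the list's median, H1foo lay at 18 regulators (47.7% of all genes) and AE4 at 7 (36.7%), and with the peak's centre in the window at 25 (62.4%) and 12 (50.7%). The score is the authors' peak caller's value and starts at 50 in both lists. At all genes, 28.6% of the H1foo peaks and 15.2% of the AE4 peaks scored at least 100. This cutoff thus keeps an unlike part of each list, and H1foo without AE4 at that cutoff depends on both parts.

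**Figure D1:**
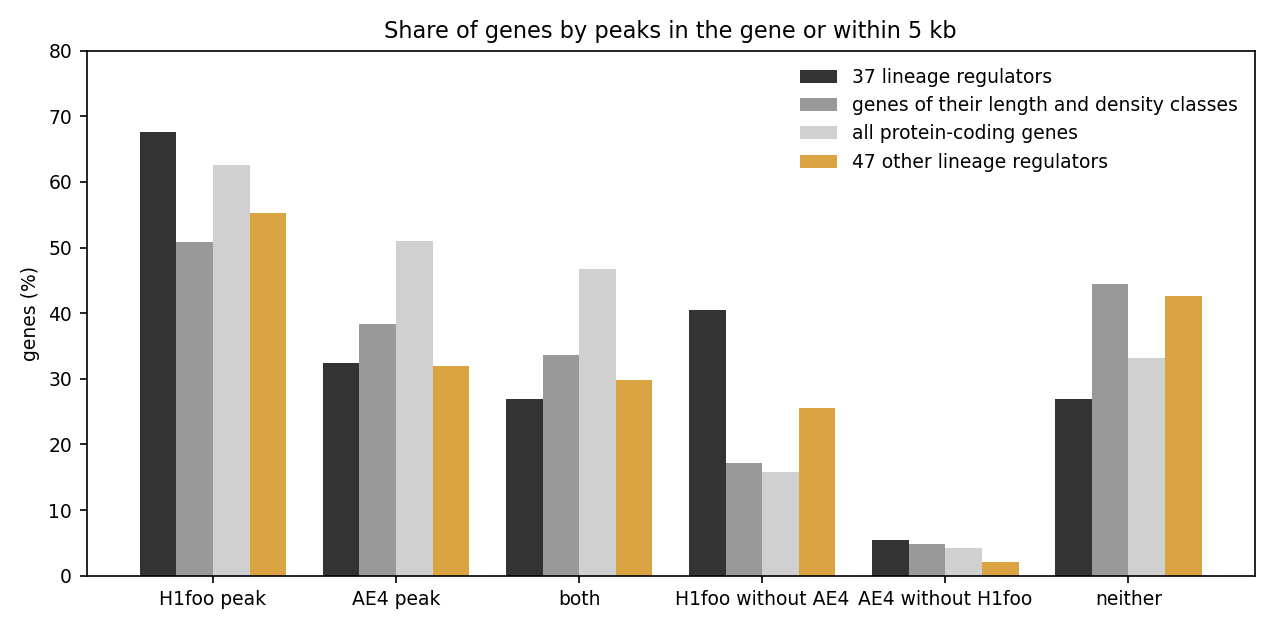
Share of genes (%) by the peaks in the gene or within 5 kb, for the 37 regulators, for genes of their length and gene density classes, for all protein-coding genes and for 47 other lineage regulators. H1foo without AE4 stands at 40.5% of the regulators and 15.8% of all genes, and AE4 at 32.4% and 51%.

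The share of regulators with H1foo stood above the classes only in the windows of 5 and 10 kb, among the 4 windows read. With the gene span alone, 15 regulators or 40.5% had an H1foo peak, beside 56.1% of all genes and 42.5% in the classes, and 9 had an AE4 peak (42.7% of all genes). H1foo without AE4 was then at 8 regulators (17.4% of all genes). Within 2 kb H1foo lay at 17 or 45.9%, beside 59.4% and 46.7%, AE4 at 10 (46.1% of all genes) and H1foo without AE4 at 9 or 24.3% (17.2%, and 17.5% in the classes). Within 10 kb H1foo lay at 26 (66.2% of all genes, 55.9% in the classes), AE4 at 14 (57.1%) and H1foo without AE4 at 14 (13.6%). Between 2 and 5 kb another 8 genes were added: Gata3, Gsc, Myod1, Neurod1, Neurog2, Otx2, Sox1 and Sox9. They make up 21.6% of the regulators, where 3.17% of all genes and 4.11% of genes in the classes had an H1foo peak within 5 kb but none within 2 kb. None of the 8 had an AE4 peak in its window (21.6% against 1.97% of all genes), and 5 of them are ectoderm regulators. Their 10 H1foo peaks had scores from 50.04 to 122.6 with a median of 59.6, so most stood low in a list whose median is 73.2, and their centres lay 2629 to 4983 bp from the gene. This distance class was looked at after the counts by window were known, and 2 of 47 other lineage regulators and 0 of 13 pluripotency regulators fell in it.

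**Figure D2:**
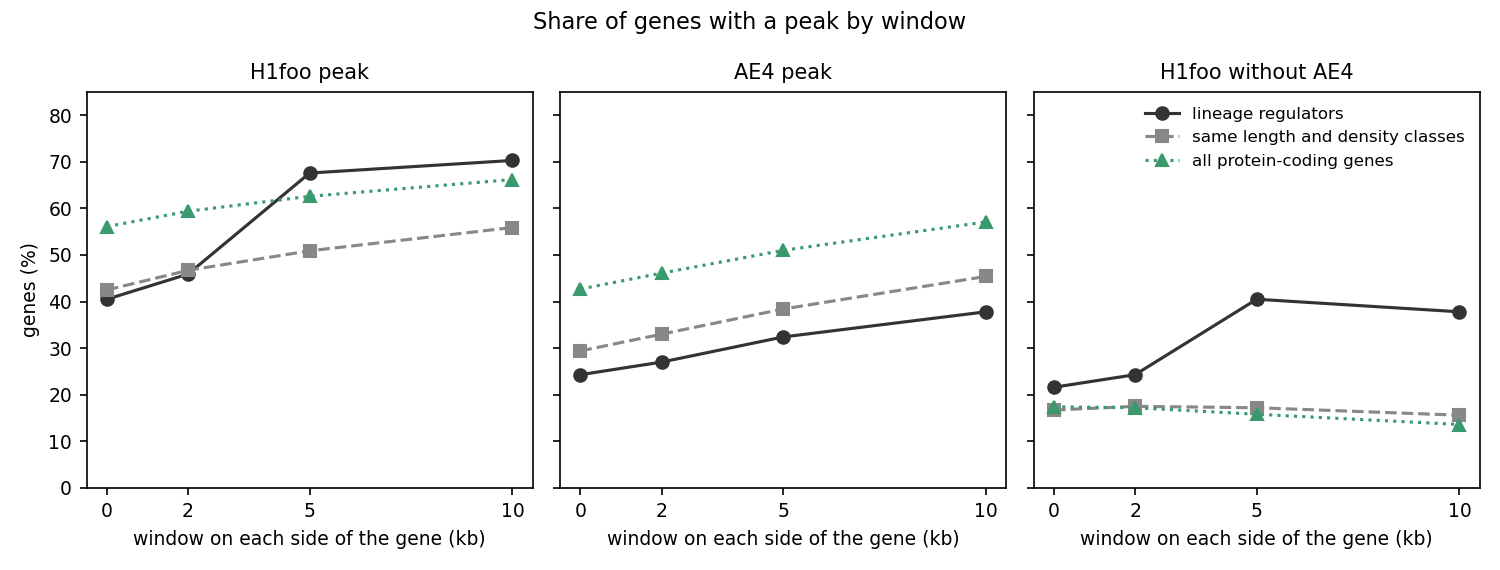
Share of genes (%) with an H1foo peak, an AE4 peak, or H1foo without AE4, by the window added on each side of the gene (kb), for the 37 regulators, their length and density classes and all protein-coding genes. For H1foo the regulators go from 45.9% at 2 kb to 67.6% at 5 kb while the classes go from 46.7% to 50.9%.

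By peak number the regulators carried 102 H1foo and 34 AE4 peaks, none of them counted for 2 regulators. The median per gene was 1 for H1foo and 0 for AE4, beside 2 and 1 over all genes. Per length of window there were 0.757 H1foo peaks per 10 kb (0.711 over all genes) and 0.252 AE4 peaks per 10 kb (0.324). The order for H1foo turned with the window: the regulators stood below all genes with the gene span alone (0.573 against 0.638 per 10 kb), within 2 kb (0.631 against 0.671) and within 10 kb (0.757 against 0.762). By bases covered by H1foo peaks they also stood below, at 4.65% against 4.92%. AE4 was lower in the regulators by each of these measures. Of the H1foo peaks 46 lay at only 4 genes, Tead4, Sox10, Pax7 and Tfap2c, so totals over the list say little of most regulators. H1foo peaks had a median score of 72.6 and a median width of 535.5 bp, close to the 74.7 and 573 bp of peaks at all genes. An AE4 peak overlapped 18.6% of the H1foo peaks (25.4% for peaks at all genes), and an H1foo peak overlapped 55.9% of the AE4 peaks (56.3%).

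**Figure D3:**
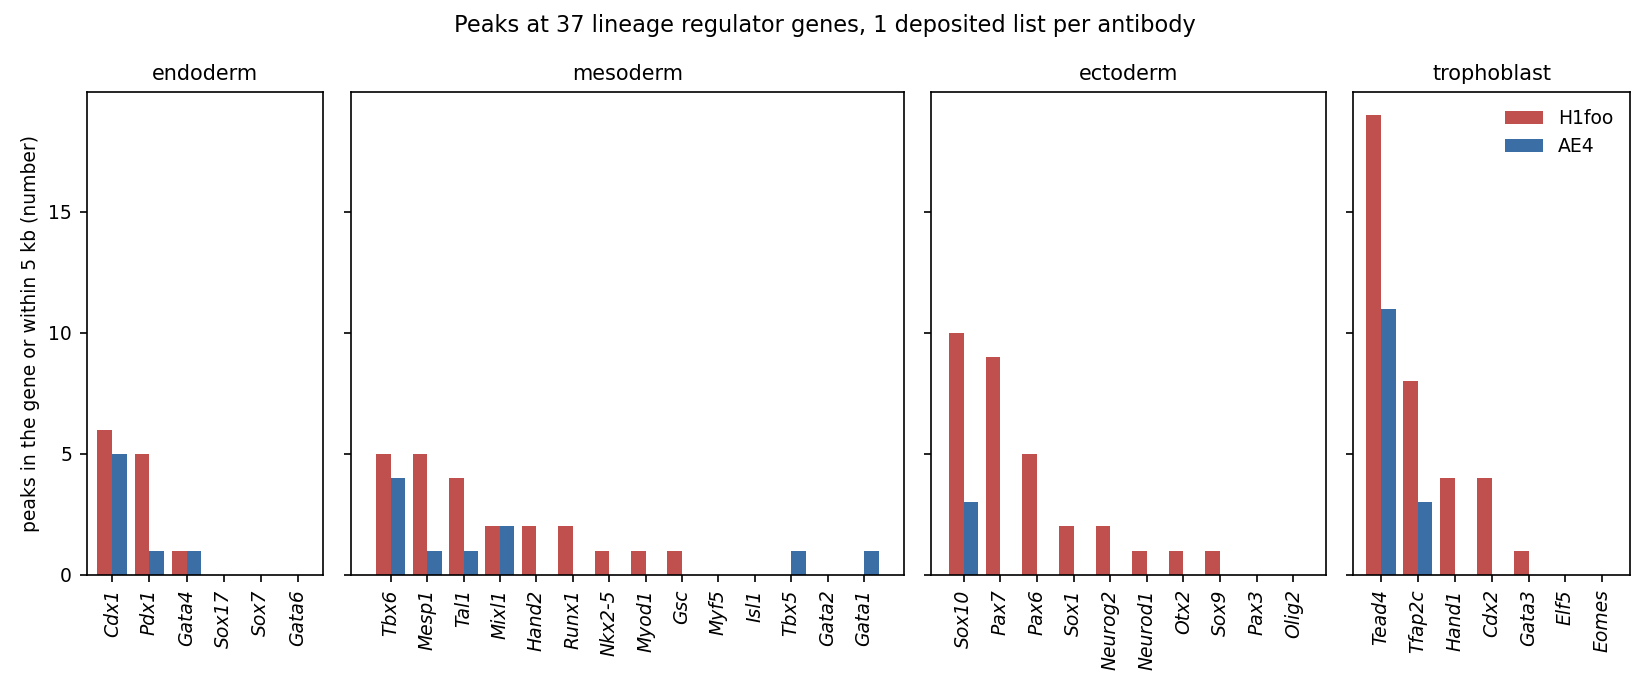
Number of H1foo (red) and AE4 (blue) peaks in each of the 37 genes or within 5 kb, by lineage. Tead4 stands highest with 19 H1foo and 11 AE4 peaks, and 10 genes have no bar of either colour.

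Among the trophoblast regulators, the factors of the outer layer that forms the placenta, 5 of 7 had an H1foo peak and 2 an AE4 peak. The H1foo share of 71.4% stands beside 62.6% of all genes and 54.7% in their classes, and the AE4 share of 28.6% beside 51% and 41.3%, with only 7 genes. Tead4, the DNA-binding partner of Yap that sets up the trophectoderm, had 19 H1foo and 11 AE4 peaks in a window of 83.7 kb on chromosome 6. Of these, 18 H1foo and all 11 AE4 peaks touched the gene itself. The H1foo scores ran from 51.9 to 186.1 and the AE4 scores from 52.5 to 153.4, and 8 H1foo peaks overlapped AE4 peaks. The highest H1foo peak of Tead4, chr6:128296203-128297310, had no AE4 partner, while the highest AE4 peak, chr6:128245011-128245652, lay over an H1foo peak of score 79.1. Without Tead4 the regulators held 83 H1foo and 23 AE4 peaks.

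Tfap2c, an AP-2 factor of trophoblast and germ cells, had 8 H1foo peaks and 3 AE4 peaks on chromosome 2. Its highest H1foo score, 159.5, was inside the gene at chr2:172555705-172556466 and was met by an AE4 peak of 50.8, while its highest AE4 peak, 120.1, had no H1foo partner. Hand1, needed for trophoblast giant cells and the heart, had 4 H1foo peaks with scores from 51.9 to 125.0 and no AE4 peak. Cdx2, which maintains trophectoderm, had 4 as well, with a top score of 81.3, and Gata3 had 1 at 87.6, all without AE4. Elf5 and Eomes, both of the trophoblast stem cell, had no peak in either list.

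Ectoderm regulators, which make the nervous system and neural crest, had the largest difference between the antibodies of the 4 groups: 8 of 10 had an H1foo peak and 1 an AE4 peak. Their classes gave 44.8% for H1foo and 33.3% for AE4, and all genes gave 62.6% and 51%. At 5 of the 8 genes, Neurod1, Neurog2, Otx2, Sox1 and Sox9, H1foo peaks lay within 5 kb but none within 2 kb. The H1foo count therefore rests in large part on that distance class, which was looked at after the counts were known. With genes of several lineages moved to their second lineage, H1foo lay at 6 and AE4 at 1 of 7 ectoderm regulators. Sox10, the factor of neural crest and glia, had 10 H1foo and 3 AE4 peaks in a window of 19.6 kb on chromosome 15, and H1foo peaks covered 31.7% of it. Its highest H1foo score, 184.4, was at chr15:79150825-79151826, with its centre 3588 bp outside Sox10, and touched the neighbour Polr2f, so which gene it belongs to cannot be told apart. AE4 peaks of 113.9 and 113.4 each overlapped an H1foo peak, one at the lower end of the gene and the other 4902 bp beyond its upper end.

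Pax7, of neural crest and muscle stem cells, had 9 H1foo peaks and no AE4 peak in a window of 106.5 kb on chromosome 4. The H1foo scores were 50.8 to 107.0, and 8 peaks lay inside the gene, the nearest of them 16890 bp from the listed start. In its length and density class 65.1% of genes had an AE4 peak. Pax6, which directs the eye and forebrain, had 5 H1foo peaks with scores from 50.7 to 109.0 and no AE4 peak, and its top peak is the one that reaches the internal start window printed above.

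Of the remaining ectoderm regulators, Sox1, of the early neural plate, had 2 H1foo peaks, the higher at 122.6. Neurog2, a proneural factor, had 2 at 63.2 and 56.1. Neurod1, Otx2 and Sox9 had 1 each, at 79.1, 56.1 and 50.04. Pax3 and Olig2 had no peak in either list, although Pax3 is 95.9 kb long and 62.1% of genes in its class had an H1foo peak.

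**Figure D4:**
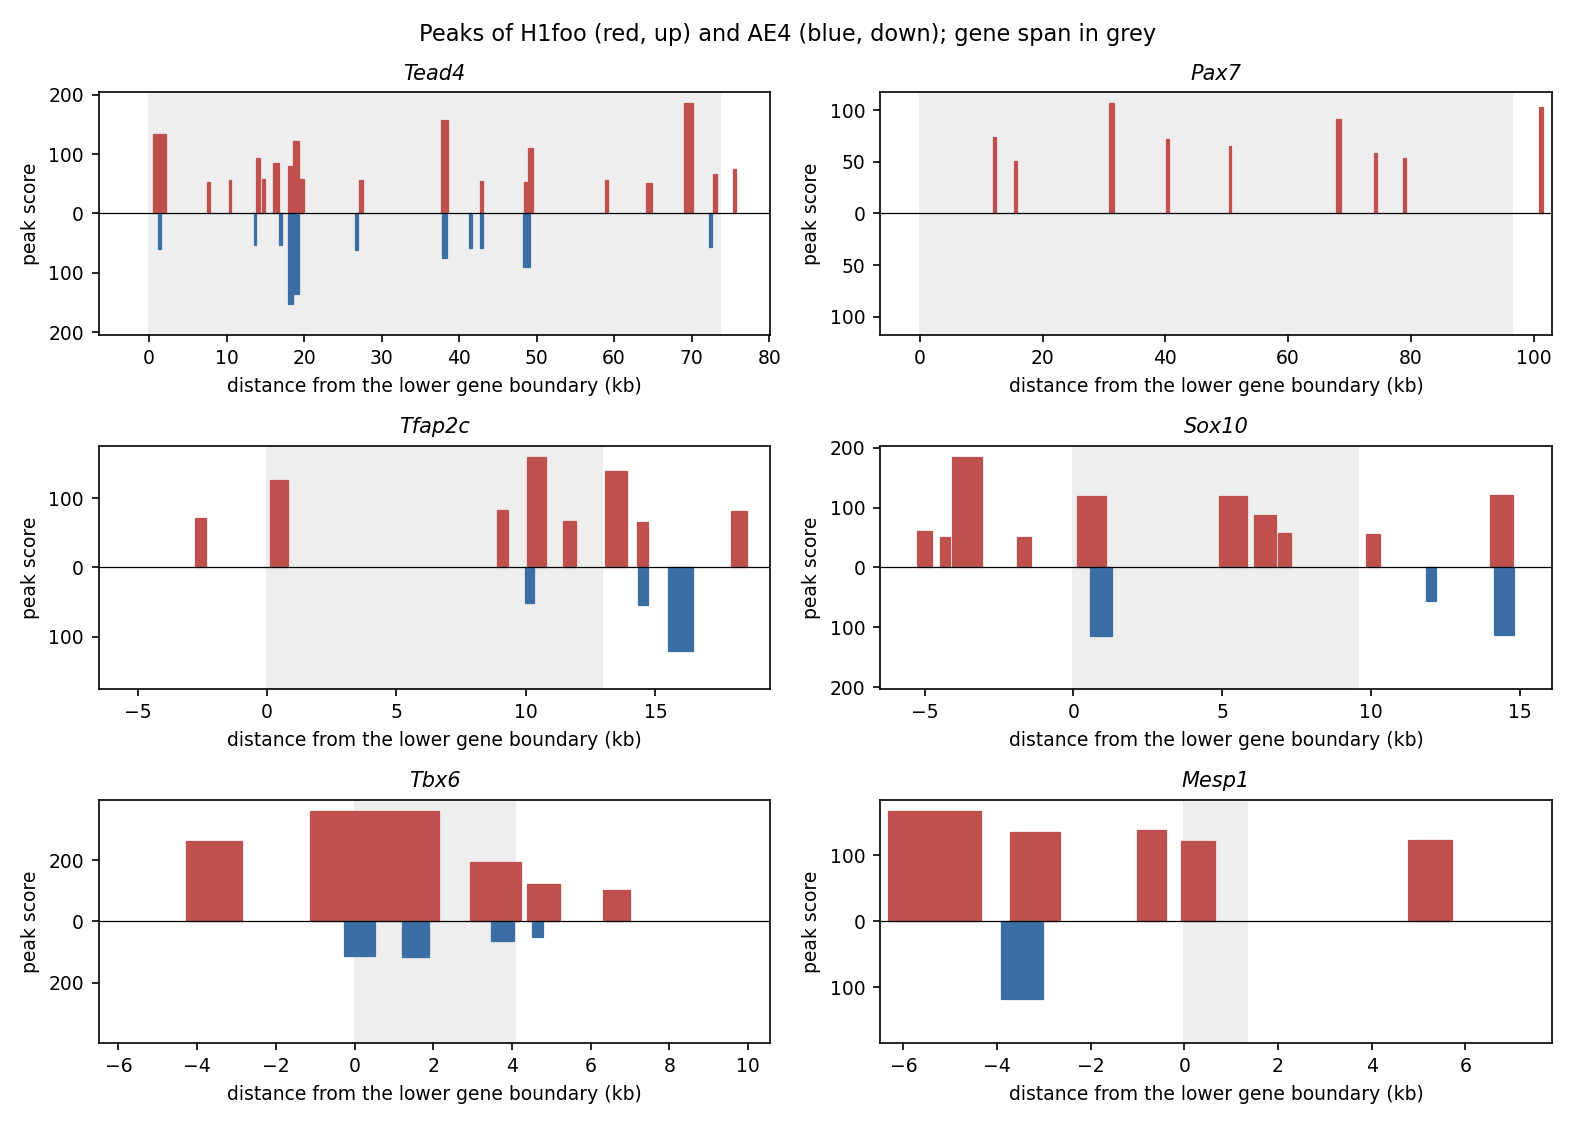
Peaks of H1foo (red, upwards) and AE4 (blue, downwards) at 6 genes, by distance from the lower gene boundary (kb) and peak score, with the gene span in grey. Tead4 has peaks of both antibodies along the gene, Pax7 has 9 of H1foo alone, and at Tbx6 a peak of 3290 bp spans the lower boundary.

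Mesoderm regulators had an H1foo peak at 9 of 14 or 64.3%, near the 62.6% of all genes and above the 51.7% of their classes. AE4 lay at 6 of 14 or 42.9%, beside 51% of all genes and 39.0% in the classes. Tbx6, which specifies paraxial mesoderm, had the strongest H1foo peak of all 37 genes, with a score of 360.8 and rank 978 of the list. This peak, chr7:126780351-126783640, was 3290 bp wide, spanned the start printed above and reached the neighbour Ypel3. Further H1foo peaks in the window touched Ypel3 or the neighbour Ppp4c, so which gene they belong to cannot be told apart. Tbx6 had 5 H1foo peaks (scores 101.1 to 360.8) that covered 53.3% of its window, and 4 AE4 peaks (50.1 to 114.9), each of which overlapped an H1foo peak. It also had 54 genes within 1 Mb, the most of the 37.

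Mesp1, the earliest marker of cardiac mesoderm, had 5 H1foo peaks with scores from 121.0 to 167.1 and 1 AE4 peak of 117.2. All of its H1foo peaks thus scored above 100, and they covered 35.4% of the window. Only 1 touched the gene itself. The highest touched the neighbour Wdr93, with its centre 5337 bp from Mesp1, so which gene it belongs to cannot be told apart. Tal1, of blood and endothelium, had 4 H1foo peaks, the highest of 139.5 at chr4:115069018-115069932 inside the gene, where its only AE4 peak (81.6) also lay. Mixl1, of the primitive streak, had 2 peaks of each antibody. Hand2 and Runx1 had 2 H1foo peaks each, and Nkx2-5, Myod1 and Gsc had 1 each, all without AE4. Runx1, of blood stem cells, was the longest of the genes at 224.6 kb, and its 2 peaks gave 0.0852 per 10 kb.

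Gata1 and Tbx5 had AE4 alone. Gata1, the erythroid factor, is on chromosome X and had 7 H1foo and 2 AE4 peaks in its 1 Mb. Its AE4 peak scored 52.5, and 83% of genes in its class had an H1foo peak. Tbx5, of heart and forelimb, had 1 AE4 peak of 50.9 in 98.7 kb. Both scores are near the lowest value in the list, 50. Myf5, of muscle, Isl1, of heart and motor neuron progenitors, and Gata2, of blood stem cells, had no peak.

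Endoderm regulators had an H1foo peak at 3 of 6 and an AE4 peak at the same 3 genes, beside 62.6% and 51% of all genes and 54.5% and 42.3% in their classes. None of the 6 had H1foo alone, where the classes gave 16.8%, and none had AE4 alone, where they gave 4.65%, so a count of 0 in 6 genes is near these shares. Cdx1, of the posterior body and intestine, had 6 H1foo peaks (52.6 to 137.1) and 5 AE4 peaks (51.3 to 103.4), of which a single pair overlapped. Pdx1, of the pancreas, had 5 H1foo peaks (51.6 to 80.5) and 1 AE4 peak (51.4) that overlapped none of them. Gata4, of endoderm and heart, had 1 of each in 82.8 kb, at different places, with scores of 54.7 and 57.3. Sox17, Sox7 and Gata6, factors of definitive and primitive endoderm, had no peak in either list. The surroundings differed as well: 169 H1foo peaks lay in the 1 Mb around Cdx1 and 4 in that around Gata6.

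Peaks of the surroundings went with peaks at the gene. Across the 37 regulators, the H1foo peaks in the window and those in the rest of the surrounding 1 Mb had a Spearman's rho of 0.70, and for AE4 it was 0.49. Both counts share the library, its depth and the regional density of genes, and genes are not replicates. With gene length the rho for H1foo was -0.05, where over all genes it was 0.28. The 10 genes without a peak had different surroundings: Isl1 had 0 H1foo peaks in the rest of its 1 Mb, Myf5 3, Gata6 4, Gata2 5, Pax3 8 and Sox17 9, while Sox7 had 24, Elf5 41, Olig2 82 and Eomes 86. Olig2 and Eomes thus lacked peaks in regions that hold many. In their length and density classes only 45.4% and 23.7% of genes had an H1foo peak, so a gene without one is common there. In contrast Pax6 had 5 H1foo peaks in its window and 24 in the rest, and Tal1 had 4 and 26.

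**Figure D5:**
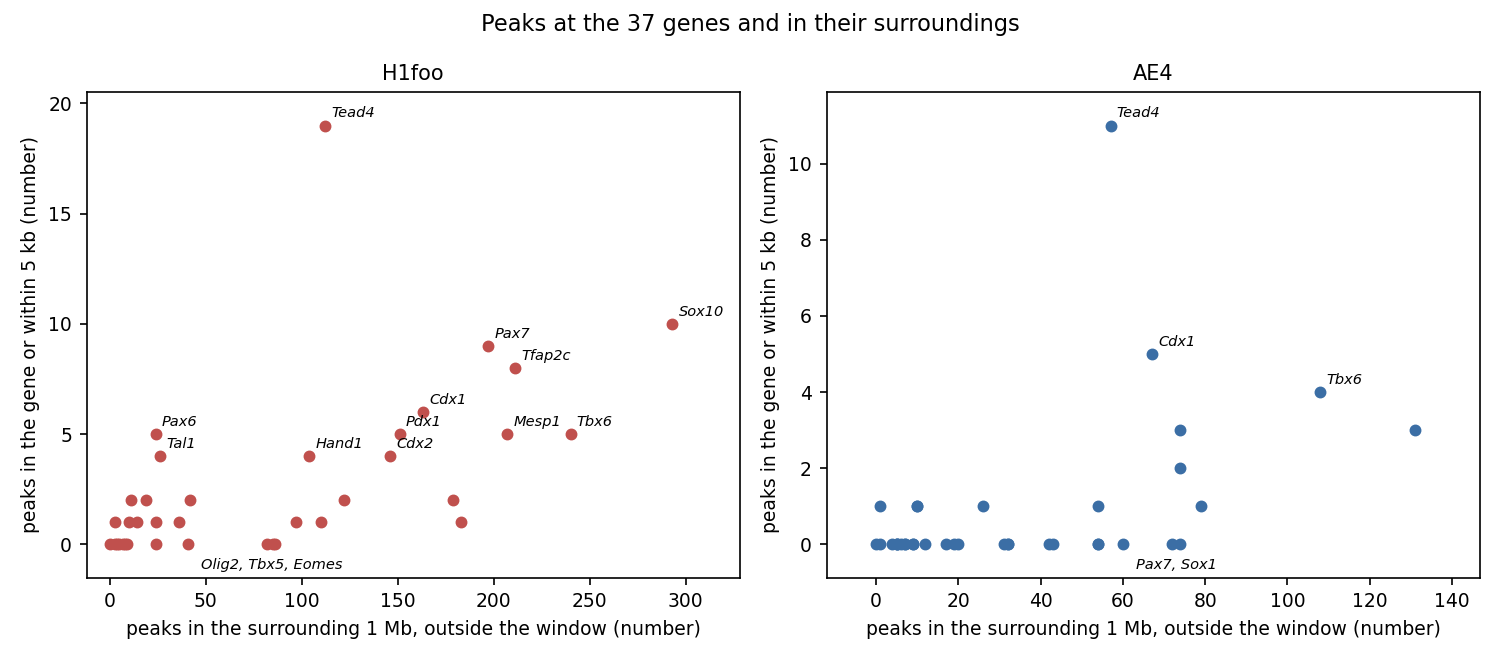
Peaks in the gene or within 5 kb against peaks in the rest of the surrounding 1 Mb, for H1foo and AE4, 1 point per gene. Tead4 stands above the others with 19 H1foo peaks, and Olig2, Tbx5 and Eomes have 0 with 82 to 86 H1foo peaks around them.

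In place along the gene, 28.4% of the H1foo peaks had their centre within 2 kb of a gene boundary, 40.2% deeper inside and 31.4% more than 2 kb outside. Over all genes the shares were 22.5%, 60.2% and 17.2%. For AE4 they were 32.4%, 47.1% and 20.6%, beside 17.9%, 65.4% and 16.7%. Short genes have less inside to hold peaks, so these shares are not matched for length. The window of 7 regulators reached another protein-coding gene, and 10 of the 102 H1foo peaks and 3 of the 34 AE4 peaks touched one. Without these 7 regulators, 14 of 30 had H1foo without AE4 (46.7%, beside 17.3% in the classes). Mesp1 stayed among the 30, although its highest H1foo peak touched Wdr93, which lies beyond the window. It also had an AE4 peak and so was not among the 14.

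A further 47 lineage regulators gave a smaller gap. Sox2, which had an AE4 peak but no H1foo peak, is counted in this list and again among the 13 pluripotency regulators below. H1foo lay at 26 of 47 or 55.3% (43.5% in their classes), AE4 at 15 or 31.9% (32.6%), and H1foo without AE4 at 12 or 25.5% (15.2%). All genes gave 62.6%, 51% and 15.8% in that order, so the H1foo share stood above the classes but below all genes. In endoderm Hnf4a, a liver and gut factor, had 10 H1foo and 5 AE4 peaks. In mesoderm Gata5 had 7 and 2 and Snai1, of epithelial to mesenchymal transition, had 5 and 1. In ectoderm Nkx2-2 had 5 and 1 and Foxd3 3 and 0, and in trophoblast Hopx had 4 and 0 and Ets2 3 and 3. Of the other ectoderm regulators 4 of 15 had an H1foo peak (26.7%, beside 27.1% in their classes and 62.6% of all genes). An AE4 peak was at 2 (13.3%, beside 16.9% and 51%).

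The 13 pluripotency regulators, which hold the stem cell state, had H1foo at 10 (76.9%, beside 44.4% in their classes), AE4 at 6 (46.2%, beside 33.1%) and H1foo without AE4 at 5 (38.5%, beside 16.3%). All genes gave 62.6%, 51% and 15.8% in that order. The median of the pluripotency regulators was 3 H1foo peaks per gene against 1 for the lineage regulators. The share with H1foo alone was 38.5% here and 40.5% in the 37 lineage regulators, and the difference was not tested.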

How the data were processed

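ChIP-seq libraries of H1foo (2) and AE4 (2) were aligned with Bowtie 1.1.2 to mm10, per the submitters' processing notes, and peaks were called with MACS, per the file headers. The authors deposited 1 list per antibody with a score per peak, whose scale is not named. How the libraries were combined, any input control, and whether AE4 also binds H1foo: not given in the sources used here. Depth is unknown, and libraries may not be separate cultures.

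Peaks on 21 assembled chromosomes (97795 and 47449) were intersected (1 bp or more) with RefSeq gene spans of GRCm38.p6, widened by 5 kb. Gene density was counted in 1 Mb, in 10 classes, and length in 3. Overlap code was tested on simulated data. Python 3.11.15, pandas 2.3.3 and scipy 1.17.1 were used. Alternatives were the window, score, overlap, classes, lineage assignment and list length. The H1foo list limited to the AE4 number was added after the data were seen.

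The genes and lists were chosen with earlier results of these data known. Values are given for the 3 regulators per lineage with the most H1foo peaks, all with AE4 alone or no peak, and, of the other regulators, 2 per lineage, of which 1 is not reported here. The remaining regulators are named with counts and scores. The Isl1 sequence and the class of genes with H1foo peaks between 2 and 5 kb were picked after their values were seen. Start distances rest on the 23 genes with a listed start.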

Additional observations from a re-analysis of the deposited data

How the results depend on the processing

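Of 107 recomputed values, 85 stayed within 1.5 times the reported count or density or within the counting interval of a share, which is wide with 37 genes, 18 moved further and 4 changed sign. Among the 85, the H1foo share stood 4.998 points above all genes without classes and 4.94 above the classes with scores of at least 100, in place of 16.7, and the AE4 share stood at -18.6 without classes in place of -6.00. The H1foo peaks per 10 kb, as a ratio to all genes, went from 1.06 to 0.90 with the gene span alone, 0.94 within 2 kb and 0.99 within 10 kb. With the gene span alone, H1foo lay at 15 of the 37 regulators (56.1% of all genes), H1foo without AE4 at 8 (17.4%) and neither at 20 (40%). The H1foo share then stood -1.93 points from the length and density classes in place of 16.7, with H1foo without AE4 at 4.96 in place of 23.3. Within 2 kb, H1foo without AE4 fell on 9 (17.2% of all genes) and neither on 18 (36.7%). The H1foo share there stood at -0.80 points and H1foo without AE4 at 6.80 in place of 23.3. With scores of at least 100 the numbers were 11 for H1foo (35.6% of all genes), 6 for AE4 (16.2%), 6 for both (14.6%) and 5 for H1foo without AE4 (21%). AE4 without H1foo lay at 0 (1.51% of all genes) and neither at 26 or 70.3% (62.8%, and 73.9% in the classes). At that cutoff AE4 stood at 5.76 points in place of -6.00 and H1foo without AE4 at -2.10. With scores above the list's median AE4 lay at 7 (36.7% of all genes), AE4 without H1foo at 0 (4.89%) and neither at 19 (47.5%). With the H1foo list limited to the AE4 number, chosen after seeing the data, H1foo without AE4 lay at 9 (7.67% of all genes) and neither at 16 (41.3%). Of the regulators' H1foo peaks, 31.2% then overlapped AE4. Some of these settings used fewer peaks or a shorter window. The 10 kb window and the comparison without classes did not. The cause of the changes was not tested. The class differences by window and score were also added after seeing the data. Read depth is unknown, so its limit on a gene without a peak cannot be given. No paired analysis was possible because the lists carry no value per library, and for the same reason no library could be left out.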
